A study of Rattus norvegicus with 16 samples.

Results

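Kit, Pdgfra and Flt4 encode 3 receptor tyrosine kinases of the cell surface, and they were followed as 3 of the 32552 genes counted in RNA from the rat abdominal wall under an implant. They were chosen by name, each as the receptor of 1 cell type of the foreign body reaction (Kit of mast cells, Pdgfra of fibroblasts and Flt4 of lymphatic endothelium), with their measured values in these libraries known. Their levels and fold changes over implant and day were therefore selected on and are given as a description with no test, and tests are given for other genes only. All 3 were found by the symbol paired with their identifier in the study's list of expressed genes, and all 3 passed the filter on low counts in every comparison.

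The animals were Sprague Dawley rats, 12 weeks old, all female by the sample labels, although the paper's methods name both sexes for its rat studies. Adhesive implants bonded to the abdominal wall. Non-adhesive implants were the same material swollen in phosphate-buffered saline until it no longer bonded, held in place with sutures, which therefore differ between the implants in every comparison. The 16 libraries fall into 4 groups of 4, adhesive day 14, non-adhesive day 14, adhesive day 3 and non-adhesive day 3 post-implantation, and no group without an implant was sequenced in these libraries. Whether every library is from its own rat is not stated in the sources used here, and p values then measure only how these samples vary, which may be technical. Days follow the sample labels and the paper, and other label fields also name days 10 and 17.

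Receptor tyrosine kinases carry a ligand-binding part outside the cell and a kinase inside it. Ligand joins receptors into pairs, the kinases phosphorylate each other, and adaptors such as Grb2 then link the receptor to Ras, ERK and phosphoinositide 3-kinase signalling. Kit binds stem cell factor and is needed for mast cell survival. Pdgfra binds platelet-derived growth factors and drives growth and migration of fibroblasts, the cells that lay down a capsule around an implant. Flt4, also known as VEGFR-3, binds Vegfc and Vegfd and drives the growth of lymphatic vessels. In bulk tissue, fewer cells of a type and less RNA per cell cannot be told apart.

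In the count files Kit (ENSRNOG00000002227) lies on the minus strand at chr14:35072108-35149610, with an exon length of 5264 bases. Pdgfra (ENSRNOG00000002244) lies on the same strand of the same chromosome at chr14:35527927-35581031, with 6514 exonic bases. Its lower coordinate is 378.3 kb above the upper coordinate of Kit, so on the minus strand Pdgfra lies upstream of Kit. Flt4 (ENSRNOG00000002511) lies on the plus strand at chr10:35078726-35121599, with 5717 exonic bases. The build of these coordinates is not settled, because the paper names a rat assembly, the labels a mouse assembly, and chromosome 1 of the files runs to position 282724300. Kit and Pdgfra are thus neighbours and varied together within groups, so the bases before their start sites are shown with those of Flt4. The 100 bases upstream of each start, read 5′ to 3′ on the gene's strand from RefSeq on GRCr8, are at chr14:32978813-32978912 for Kit, chr14:33408517-33408616 for Pdgfra and chr10:34414734-34414833 for Flt4, with each CG dinucleotide in capitals.
Kit: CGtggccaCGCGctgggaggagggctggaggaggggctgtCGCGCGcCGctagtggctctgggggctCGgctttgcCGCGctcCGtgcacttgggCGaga
Pdgfra: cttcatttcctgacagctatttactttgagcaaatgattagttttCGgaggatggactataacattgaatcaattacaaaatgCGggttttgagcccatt
Flt4: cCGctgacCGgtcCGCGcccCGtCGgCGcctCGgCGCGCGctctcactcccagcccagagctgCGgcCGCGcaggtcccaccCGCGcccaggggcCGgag
These stretches hold 12, 2 and 17 CG dinucleotides. Over the 250 bases upstream, Kit has 20, Pdgfra 4 and Flt4 28, where the median of 33469 RefSeq promoter windows is 5. At least as many are held by 16.7% of windows for Kit, 62.6% for Pdgfra and 6.785% for Flt4. A GC box, the hexamer GGGCGG or its reverse complement CCGCCC, occurs 1 time before Kit, 0 times before Pdgfra and 3 times before Flt4, and in 30.5% of all windows. The letters TATAAA or TTTATA are in none of the 3, and in 12.9% of all windows. The neighbours Kit and Pdgfra therefore start from unlike sequence, and Kit and Flt4, on different chromosomes, both start from CG-rich sequence.

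Library totals were 13852126 to 16801635 counts on day 14 and 18616084 to 24858976 on day 3. Every day 14 library was shallower than every day 3 library, and day and any batch that follows it cannot be told apart. Non-adhesive day 14 replicate 4 stood apart from its group. Its 14 skeletal muscle fibre genes had a mean of 8.145 log2 CPM and its 15 leukocyte genes 2.61 log2 CPM, where CPM is the usual count relative to the library's total, here scaled by TMM. For the other 3 libraries of the group the muscle mean was 7.42 to 7.46 and the leukocyte mean 4.525 to 5.225. Without it, 1151 genes were called between implants on day 14, where 36 were called with it.

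On day 14, Kit was at 3.35, 7.12, 3.84 and 3.21 CPM under adhesive implants, and at 19.2, 20.1, 19.0 and 4.99 CPM under non-adhesive implants. Non-adhesive replicates 1, 2 and 3 lay close together and above all other libraries of the series, and replicate 4 lay inside the adhesive range. These CPM rest on 31 to 94 counts under adhesive and 48 to 331 counts under non-adhesive implants. On day 3 Kit was at 3.13, 5.85, 6.17 and 5.36 CPM under adhesive implants and at 6.94, 3.44, 5.88 and 4.78 CPM under non-adhesive implants, and the groups overlapped almost fully.

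The group means of Kit were 4.38 ± 1.85 CPM for adhesive day 14, 15.8 ± 7.25 CPM for non-adhesive day 14, 5.13 ± 1.37 CPM for adhesive day 3 and 5.26 ± 1.501 CPM for non-adhesive day 3 (SD, n = 4 each). Non-adhesive day 14 was the highest, 10.6 CPM above the next group, more than the larger SD of the pair (7.25 CPM), although their ranges overlap through replicate 4. The other 3 groups were within 1 SD of each other. The log2 fold change of adhesive over non-adhesive implants was -1.85 (SE 0.46) on day 14 and -0.04 (SE 0.30) on day 3. Leaving out each library in turn gave -2.19 to -1.72 on day 14, and -2.15 without non-adhesive replicate 4. Day 14 over day 3 was -0.22 (SE 0.40) under adhesive and 1.59 (SE 0.39) under non-adhesive implants, and 1.44 to 1.81 under non-adhesive implants with each library left out in turn.

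Pdgfra was the most abundant of the 3. On day 14 it was at 12.2, 70.3, 24.7 and 26.3 CPM under adhesive implants and at 102.4, 99.6, 122.0 and 24.4 CPM under non-adhesive implants. As with Kit, non-adhesive replicates 1, 2 and 3 exceeded all adhesive libraries and replicate 4 did not. Adhesive replicate 2 was the highest adhesive library for both Kit and Pdgfra. On day 3 Pdgfra was at 32.3, 64.6, 40.3 and 127.6 CPM under adhesive implants and at 139.6, 65.8, 156.0 and 141.3 CPM under non-adhesive implants. Adhesive replicate 4 and non-adhesive replicate 2 made the groups overlap on that day, and the other libraries were apart.

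The means of Pdgfra were 33.4 ± 25.4 CPM for adhesive day 14, 87.1 ± 43.0 CPM for non-adhesive day 14, 66.2 ± 43.2 CPM for adhesive day 3 and 126 ± 40.6 CPM for non-adhesive day 3 (SD, n = 4 each). Adhesive day 14 was thus the lowest and non-adhesive day 3 the highest, but each step in that order, 20.9 to 38.6 CPM, was smaller than the larger SD of its pair. Adhesive over non-adhesive, the log2 fold change was -1.38 (SE 0.61) on day 14 and -0.90 (SE 0.46) on day 3. Single libraries weigh on both values. The day 14 value was -2.04 without adhesive replicate 2, -1.11 without adhesive replicate 1 and -1.695 without non-adhesive replicate 4. The day 3 value was -1.47 without adhesive replicate 4. Day 14 over day 3 gave -0.99 (SE 0.57) under adhesive and -0.53 (SE 0.56) under non-adhesive implants. The first was -1.65 without adhesive day 14 replicate 2 and -0.49 without adhesive day 3 replicate 4, and the second -0.29 without non-adhesive day 14 replicate 4.

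Flt4 on day 14 was at 4.43, 6.67, 6.89 and 4.23 CPM under adhesive implants and at 32.4, 13.9, 6.75 and 9.56 CPM under non-adhesive implants. Non-adhesive replicate 1 was more than any other library of the series, and replicate 3 lay inside the adhesive range. The library with little Kit and Pdgfra, non-adhesive replicate 4, was not low in Flt4. On day 3 Flt4 was at 7.24, 6.54, 12.4 and 8.23 CPM under adhesive implants and at 7.46, 3.78, 8.20 and 6.04 CPM under non-adhesive implants, so that its mean was the higher one under adhesive implants on this day, within the spread.

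The means of Flt4 were 5.56 ± 1.42 CPM for adhesive day 14, 15.6 ± 11.5 CPM for non-adhesive day 14, 8.61 ± 2.64 CPM for adhesive day 3 and 6.37 ± 1.95 CPM for non-adhesive day 3 (SD, n = 4 each). No step between neighbours in that order exceeded the larger SD of its pair. The log2 fold change of adhesive over non-adhesive implants was -1.495 (SE 0.48) on day 14 and 0.43 (SE 0.29) on day 3. Without non-adhesive day 14 replicate 1 the first was -0.85. Day 14 over day 3 was -0.63 (SE 0.42) under adhesive and 1.30 (SE 0.41) under non-adhesive implants, and the second was 0.65 without the same library.

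**Figure D1:**
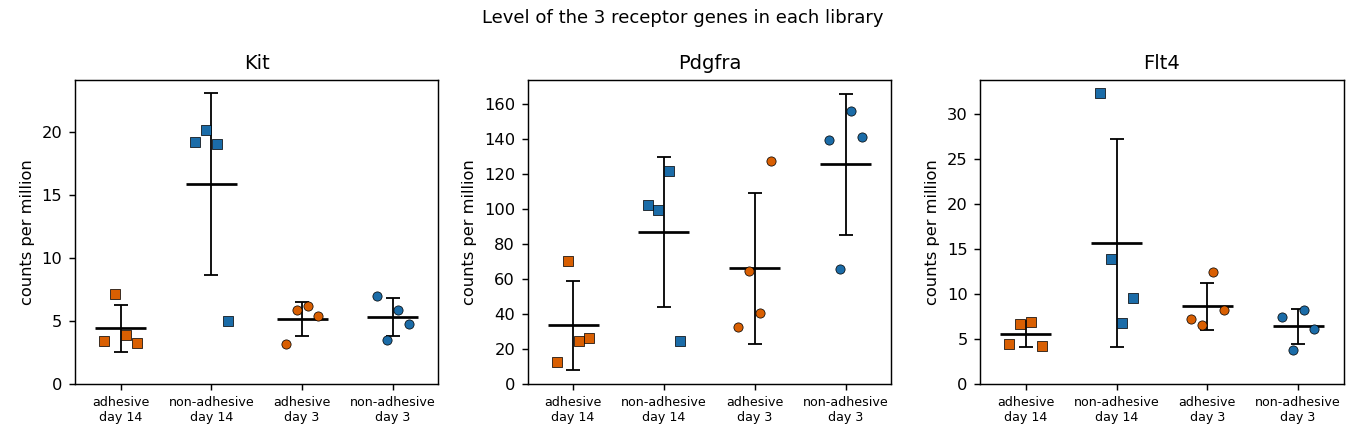
CPM (TMM-scaled, vertical axis) of Kit, Pdgfra and Flt4 in each of the 16 libraries, by group, with adhesive groups in orange, non-adhesive groups in blue, day 14 as squares and day 3 as circles; bars are the mean ± SD of 4 libraries. Kit at 19.0 to 20.1 CPM in 3 non-adhesive day 14 libraries stands above the other 13, and the fourth of that group is at 4.99 CPM.

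Because these contrasts were known when the genes were chosen, calls among them are only counted. Genes counted as called had an adjusted p no higher than 0.05 (edgeR's quasi-likelihood test, Benjamini-Hochberg) and changed by 1 or more on the log2 scale. Between implants on day 14, 0 of the 3 were called, with 0.155% of 13557 genes tested called higher and 0.111% called lower. That count depends on the method and libraries: DESeq2 called 474 genes, and edgeR 1151 without non-adhesive replicate 4. Calls of the 3 in those fits are not reported here. On day 3, 0 of the 3 were called, with 0% of 14223 genes called higher and 0% lower. In that comparison 1022 genes had an unadjusted p under 0.05, and DESeq2 called 69 genes. For day 14 over day 3 under adhesive implants, 0 of the 3 were called, with 4.39% of 14601 genes called higher and 3.73% lower. Under non-adhesive implants 2 of the 3, Kit and Flt4, were called higher and 0 lower, with 5.32% of genes called higher and 3.75% lower. Without non-adhesive day 14 replicate 1 the value of Flt4 was 0.65, under the limit on the fold change. No member had groups that did not overlap in any of the 4 comparisons, where 8.64% of genes between implants on day 14, 4.07% on day 3, 25.5% between days under adhesive and 18.1% between days under non-adhesive implants did. Between days, the implant effect (day 14 minus day 3) differed by -1.81 (SE 0.56) for Kit, -0.46 (SE 0.79) for Pdgfra and -1.93 (SE 0.58) for Flt4 on the log2 scale, with 0 of the 3 called. Each day comparison shares its libraries with the implant comparisons, so these values are not independent of each other.

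**Figure D2:**
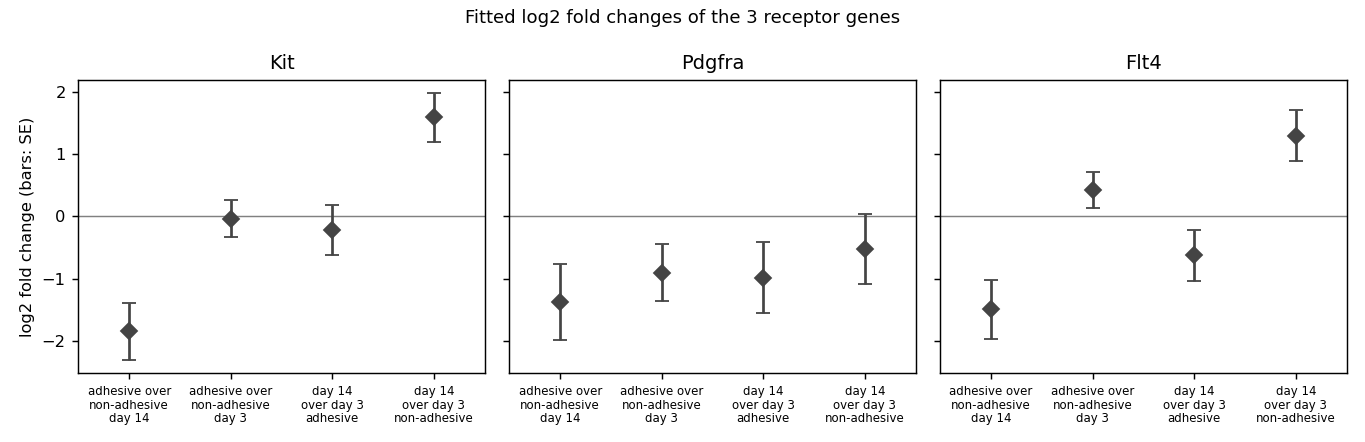
Fitted log2 fold changes (vertical axis, bars are SE) of Kit, Pdgfra and Flt4 in the 2 implant comparisons (adhesive over non-adhesive) and the 2 day comparisons (day 14 over day 3). All 3 genes are below 0 between implants on day 14 (-1.85, -1.38 and -1.495), and Kit and Flt4 are above 0 between days under non-adhesive implants (1.59 and 1.30).

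Per length of transcript, Pdgfra exceeded Kit in every library. The ratio of reads per kilobase of Pdgfra to Kit was 2.95 to 7.97 (median 5.91) for adhesive day 14, 3.96 to 5.18 (median 4.16) for non-adhesive day 14, 5.28 to 19.2 (median 8.62) for adhesive day 3 and 15.4 to 23.9 (median 18.9) for non-adhesive day 3. Under non-adhesive implants the day 14 ratios all lay below the day 3 ratios, with replicate 4 included. Of single genes tested, 18.1% did not overlap in CPM between days under these implants. The ratio of Flt4 to Kit per kilobase was 0.862 to 1.65 (median 1.22) for adhesive day 14, 0.327 to 1.77 (median 1.09) for non-adhesive day 14, 1.03 to 2.13 (median 1.63) for adhesive day 3 and 0.989 to 1.28 (median 1.09) for non-adhesive day 3. Pdgfra over Flt4 per kilobase was 2.42 to 9.25 for adhesive day 14, 2.24 to 15.9 for non-adhesive day 14, 2.85 to 13.6 for adhesive day 3 and 15.3 to 20.5 for non-adhesive day 3.

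Each receptor was then set against markers of the cell type it stands for. Symbols are known here for only 2007 genes, which leaves 4 of 18 listed mast cell genes, 12 of 17 fibroblast genes and 2 of 9 lymphatic genes. The granule proteases that define mast cells are not analysed here, and of the 4 genes found, Srgn (serglycin, the granule proteoglycan) and Alox5ap (leukotriene synthesis) are also made by other leukocytes. Whether Ltc4s and Rab44 come only from mast cells in this tissue was not tested. The cell type names of the receptors could therefore be checked only in part. No marker of the 3 lists was at 0 counts in any library.

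Relative to the mean log2 CPM of the 4 mast cell genes (Ltc4s, Alox5ap, Srgn and Rab44), Kit on day 14 lay at 0.02, -0.45, -0.71 and -0.78 under adhesive implants and at 0.84, 1.01, 1.05 and 0.83 under non-adhesive implants. On this scale replicate 4 sat with its own group. On day 3 the differences were -0.71 to 0.63 under adhesive and -0.89 to 0.73 under non-adhesive implants, all below the non-adhesive day 14 libraries. Rab44 had 1 count in non-adhesive day 14 replicate 4. Without Rab44 the day 14 ranges were -1.23 to -0.71 under adhesive and -0.43 to -0.07 under non-adhesive implants, and without Ltc4s they were -1.33 to -0.49 and 0.57 to 1.04, still apart in both cases. Without Rab44 the non-adhesive day 14 libraries were no longer all above those of adhesive day 3 (-1.36 to -0.04) or of non-adhesive day 3 (-1.94 to -0.27). Both settings were chosen after seeing the data. Of single genes tested, 8.64% did not overlap in CPM between implants on day 14. The summed CPM of the 4 genes overlapped between implants on day 14, at 29.9 to 74.1 CPM under adhesive and 39.6 to 82.3 CPM under non-adhesive implants. None of the 4 passed the test in any comparison, and 1 was called between implants on day 14 without non-adhesive replicate 4. On day 14, 3 of the 4 had a negative log2 fold change, and Rab44 was opposite in sign at 1.15 (SE 0.59, adjusted p = 0.396, edgeR). Ltc4s (leukotriene C4 synthase) was at 1.08, 4.55, 1.83 and 1.72 CPM under adhesive implants and 7.30, 8.33, 8.90 and 1.56 CPM under non-adhesive implants, with a log2 fold change of -1.49 (SE 0.59, adjusted p = 0.263, edgeR) on day 14 and of -1.49 (SE 0.93, adjusted p = 0.776, edgeR) on day 3.

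Pdgfra relative to the mean of 12 fibroblast genes lay at -1.79, -1.12, -1.74 and -1.49 log2 units under adhesive implants on day 14, and at -0.44, -0.90, -0.69 and -1.07 under non-adhesive implants. On day 3 it lay at -0.46 to 0.34 under adhesive and -0.44 to 0.29 under non-adhesive implants. Relative to these genes, Pdgfra was thus lower on day 14 than on day 3 under adhesive implants without overlap, and under non-adhesive implants the day 14 and day 3 ranges met at their edges. Lack of overlap is common there: 25.5% of single genes tested did not overlap in CPM between days under adhesive implants. Without the collagens Col1a1 and Col3a1, a setting chosen after seeing the data, the adhesive ranges stayed apart (-1.004 to -0.15 on day 14, 0.42 to 1.35 on day 3), and the implants overlapped on day 14 (-1.004 to -0.15 under adhesive, -0.26 to 0.67 under non-adhesive implants). Without Dpt and Fibin as well, Pdgfra lay at -0.98 to -0.13 on day 14 and 0.16 to 1.07 on day 3 under adhesive implants. Non-adhesive day 14 was then at -0.10 to 0.79.

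Of the 12 fibroblast genes, 0 passed the test between implants on either day. On day 3 all 12 had a negative log2 fold change (median -0.92, where all genes had a median of -0.01), and DESeq2 called 3 lower. On day 14, 11 of 12 were negative (median -0.61, all genes -0.04), and 2 were called without non-adhesive replicate 4. Between days, 2 of 12 rose under adhesive implants. Dpt (dermatopontin, a matrix protein) rose by 1.71 (SE 0.44, adjusted p = 0.0203, edgeR) and Fibin by 2.11 (SE 0.45, adjusted p = 0.00982, edgeR). The call of Dpt was lost without adhesive day 3 replicate 2 or 3 or adhesive day 14 replicate 2. Under non-adhesive implants 1 of 12 rose, Dpt by 2.27 (SE 0.44, adjusted p = 0.00494, edgeR). Dpt, with log2 fold changes above 1 between days, and Pdgfra, with values below 0, thus differed in sign under both implants. The most abundant members, Col3a1, Col1a1 (fibrillar collagens) and Dcn (decorin), had log2 fold changes of 0.16, 0.31 and -0.82 under adhesive implants between days, and none passed.

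Flt4 relative to the mean of Prox1 and Gpr182 lay at -0.22 to 0.64 log2 units for adhesive day 14 and 0.46 to 2.32 for non-adhesive day 14, overlapping, and at 0.48 to 1.18 for adhesive day 3 and -0.23 to 0.85 for non-adhesive day 3. Prox1, the transcription factor that sets lymphatic identity, is also made by other cells. It was at 9.79, 5.26, 3.499 and 7.89 CPM in the non-adhesive day 14 libraries, in which replicate 1 was again the highest and replicate 3 the lowest, as for Flt4. In the adhesive day 14 libraries it was at 5.73, 5.38, 6.63 and 8.39 CPM. Between implants Prox1 gave a log2 fold change of -0.01 (SE 0.33, adjusted p = 0.99, edgeR) on day 14. Day 14 over day 3, Prox1 rose by 1.26 (SE 0.30, adjusted p = 0.0135, edgeR) under non-adhesive implants, a call lost without non-adhesive day 14 replicate 1 or day 3 replicate 3 and in a fit of the 8 non-adhesive libraries alone, and had 0.75 (SE 0.30, adjusted p = 0.0982, edgeR) under adhesive implants. Gpr182, a receptor of lymphatic and sinusoidal endothelium, gave -0.84 (SE 0.27, adjusted p = 0.0469, edgeR) under adhesive implants, under the limit on the fold change, and -0.67 (SE 0.26, adjusted p = 0.09, edgeR) under non-adhesive implants. The second was opposite in sign to Flt4 and Prox1.

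**Figure D3:**
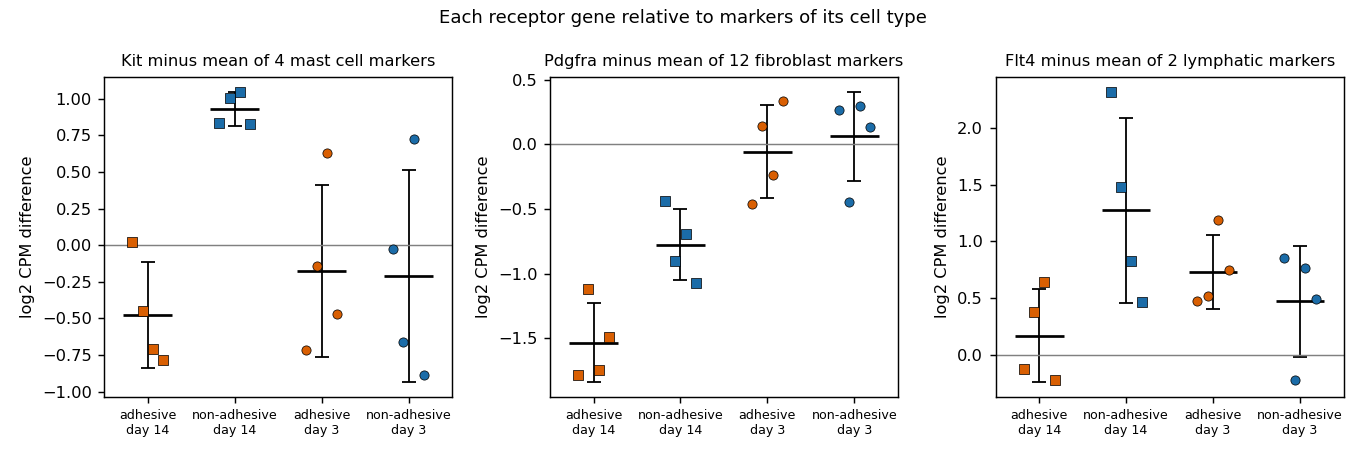
Difference in log2 CPM (vertical axis) between each receptor gene and the mean of the markers of its cell type, in every library by group; horizontal lines and bars are mean ± SD of 4 libraries. Kit is 0.83 to 1.05 above the 4 mast cell genes in all 4 non-adhesive day 14 libraries, and Pdgfra falls to between -1.79 and -1.12 in the adhesive day 14 libraries. Without Rab44, a setting not drawn, Kit lies at -0.43 to -0.07 in the non-adhesive day 14 libraries and overlaps day 3.

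Among the ligands, 2 of 7 have a symbol here. Pdgfa, a ligand of Pdgfra, had means of 32.1 ± 2.32 CPM for adhesive day 14, 30.9 ± 5.43 CPM for non-adhesive day 14, 36.1 ± 11.3 CPM for adhesive day 3 and 26.7 ± 5.96 CPM for non-adhesive day 3 (SD, n = 4 each). Its log2 fold change between implants was 0.06 (SE 0.15, adjusted p = 0.896, edgeR) on day 14 and 0.43 (SE 0.26, adjusted p = 0.766, edgeR) on day 3. Vegfd, a ligand of Flt4, was at 5.19, 8.87, 8.55 and 7.84 CPM under adhesive implants on day 14, and at 13.6, 27.6, 35.4 and 4.16 CPM under non-adhesive implants. Replicate 4 was the lowest of the series for Vegfd, and the others of its group were above all adhesive day 14 libraries. The log2 fold change between implants was -1.41 (SE 0.55, adjusted p = 0.26, edgeR) on day 14 and -0.45 (SE 0.32, adjusted p = 0.802, edgeR) on day 3, and neither passed. On day 3 Vegfd was at 9.24 to 17.1 CPM under adhesive and 9.46 to 27.1 CPM under non-adhesive implants, overlapping non-adhesive day 14. Day 14 over day 3, Vegfd gave 0.13 (SE 0.46, adjusted p = 0.877, edgeR) under non-adhesive implants. Under adhesive implants it gave -0.82 (SE 0.48, adjusted p = 0.244, edgeR). Without non-adhesive day 14 replicate 4, 1 of the 2 ligands was called on day 14. Vegfd and its receptor did not rank the non-adhesive day 14 libraries alike. Replicate 3 was the highest for the ligand and the lowest for Flt4.

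Of 5 sister receptors only Flt1, a VEGF receptor of blood vessels, has a symbol here. It was at 32.3 to 41.1 CPM for adhesive day 14, 27.99 to 47.7 CPM for non-adhesive day 14, 29.6 to 36.1 CPM for adhesive day 3 and 23.5 to 41.1 CPM for non-adhesive day 3. Its log2 fold changes lay between 0.01 and 0.22 in the 4 comparisons and none passed. Of the 10 genes of blood vessel endothelium, Flt1 included, 0 passed between implants, and the only call was Selp (P-selectin), which fell by 1.88 on the log2 scale (SE 0.56, adjusted p = 0.0363, edgeR) on day 14 over day 3 under adhesive implants. That call was lost without any of 6 adhesive libraries, 3 of each day, and under limma-voom.

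**Figure D4:**
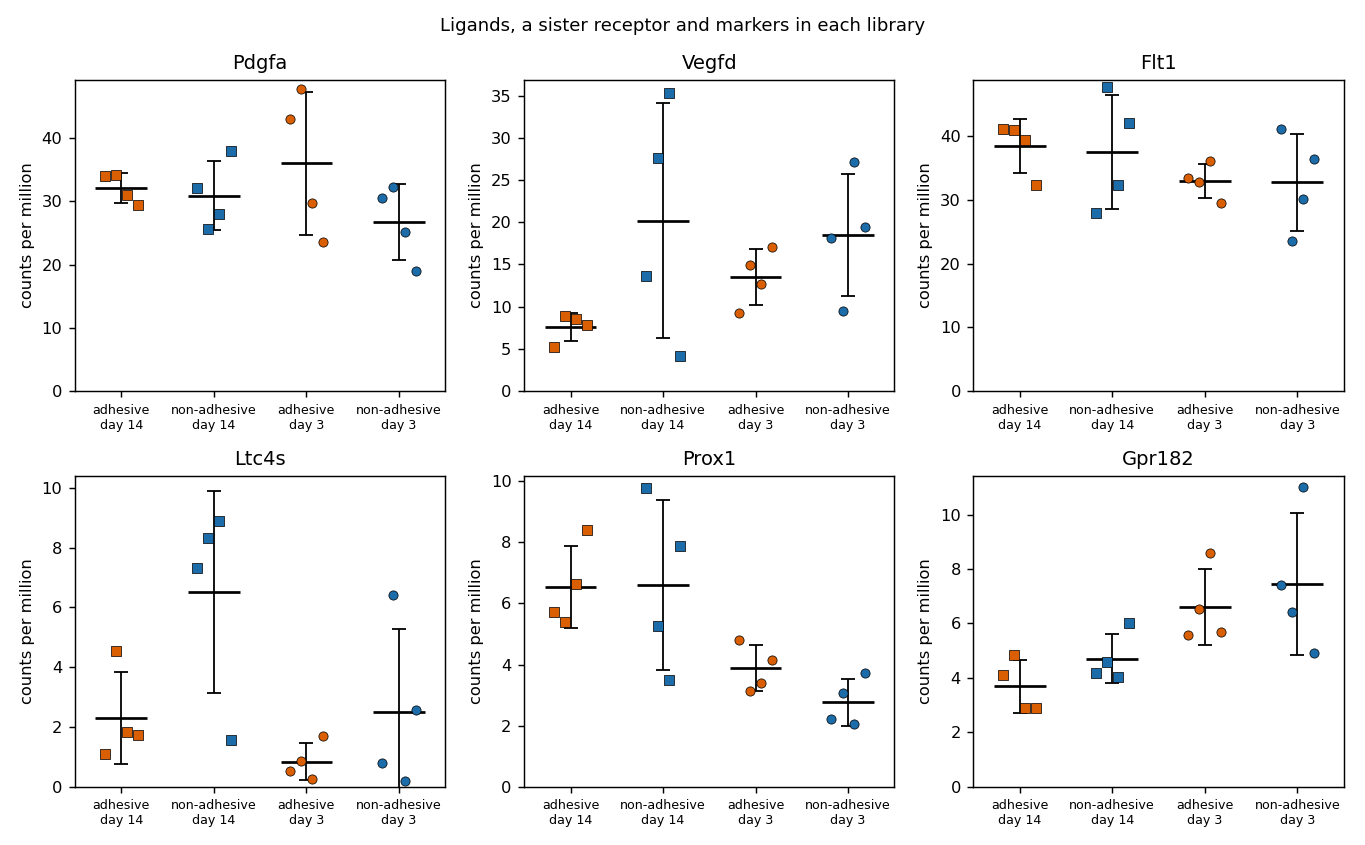
CPM (vertical axis) of the ligands Pdgfa and Vegfd, the sister receptor Flt1 and the markers Ltc4s, Prox1 and Gpr182 in each library by group, with mean ± SD of 4 libraries. Ltc4s is higher in 3 of 4 non-adhesive day 14 libraries (7.30 to 8.90 CPM) than in any other library. Vegfd in these 3 (13.6 to 35.4 CPM) is above adhesive day 14 but overlaps both day 3 groups, and Pdgfa and Flt1 overlap across groups.

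Other receptor tyrosine kinases were found for 4 of 48 listed. Egfr (the epidermal growth factor receptor), Ddr2 (a collagen receptor of fibroblasts), Ros1 and Aatk gave 0 calls between implants. Between days Aatk rose by 1.51 (SE 0.37, adjusted p = 0.0151, edgeR) under non-adhesive implants, at 5.85, 5.53, 3.38 and 3.43 CPM on day 14 against 1.11, 2.06, 1.86 and 1.39 CPM on day 3, without overlap. This call was lost without non-adhesive day 3 replicate 1, and 18.1% of genes tested did not overlap between days under non-adhesive implants. Egfr had 6 counts in non-adhesive day 14 replicate 4 and 72 to 138 in the others of its group, the same library that was low in Kit and Pdgfra.

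Downstream of the receptors, 12 of 48 adaptors and effectors have a symbol. Among the most abundant, Rac1 (a small GTPase) and Grb2 (the adaptor that binds activated receptors) had log2 fold changes of 0.01 and 0.07 between implants on day 14, and neither passed. Of the 12, 0 were called between implants on either day, and 10 of 12 were positive on day 14 (median 0.22, all genes -0.04), with 1 called without non-adhesive replicate 4. Between days the only call was Sh3kbp1, an adaptor of receptor endocytosis, which rose by 1.28 (SE 0.23, adjusted p = 0.00317, edgeR) under non-adhesive implants. Without non-adhesive day 14 replicate 4 its fold change was 0.91 and no longer passed the limit.

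Inhibitors of these receptors were found for 8 of 24. None was called between implants. On day 14 over day 3, 1 fell under adhesive implants, Socs1 (a suppressor of cytokine and receptor signalling) by 2.50 on the log2 scale (SE 0.77, adjusted p = 0.0423, edgeR). Under non-adhesive implants 1 rose, Rasal1 (a Ras inactivator) by 1.59 (SE 0.43, adjusted p = 0.0226, edgeR), and 1 fell, Sh2b2 by 1.06 (SE 0.34, adjusted p = 0.0463, edgeR). The calls of Socs1, Rasal1 and Sh2b2 were kept in 9, 12 and 8 of 16 fits that each left out 1 library. Rasal1 and Sh2b2 were also lost in a fit of the 8 non-adhesive libraries alone, and Sh2b2 under limma-voom. Cblb, a ubiquitin ligase that ends receptor signalling, gave -0.67 (SE 0.20, adjusted p = 0.0394, edgeR) under adhesive and -0.78 (SE 0.20, adjusted p = 0.0195, edgeR) under non-adhesive implants, under the limit on the fold change.

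Genes that ERK raises were found for 5 of 17. Between implants 0 of 5 were called on either day. Myc, a growth-promoting transcription factor, fell by 1.62 on the log2 scale (SE 0.29, adjusted p = 0.00439, edgeR) on day 14 over day 3 under adhesive implants and by 1.34 (SE 0.29, adjusted p = 0.00804, edgeR) under non-adhesive implants. Both calls of Myc were kept in 16 of 16 fits that left out 1 library. Ier3 and Etv5 did not pass in either, with values of -0.06 and 0.19 under adhesive and 0.11 and 0.19 under non-adhesive implants.

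The receptors were also compared with each other across libraries. Over the 16 libraries, Pearson's r of log2 CPM was 0.57 between Kit and Pdgfra, 0.70 between Kit and Flt4 and 0.30 between Pdgfra and Flt4. After the mean of each group was taken out, r was 0.83 for Kit and Pdgfra, 0.45 for Kit and Flt4 and 0.30 for Pdgfra and Flt4. Leaving out non-adhesive day 14 replicate 4 gave 0.72, 0.43 and 0.20. Of 1909 genes with a symbol and a mean of at least 1 CPM, 7.13% had an r with Kit at least as high as Pdgfra within groups. An r within groups at least as high as that of Flt4 was held by 34.49% with Kit and by 41.19% with Pdgfra. Over the 16 libraries these shares were 12.53% for Kit with Pdgfra, 6.342% for Kit with Flt4 and 37.89% for Pdgfra with Flt4. These r are a description over libraries that share tissue make-up and depth.

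Tissue make-up moved with the receptors within groups. The median r of Kit within groups was 0.80 with the 15 leukocyte genes, 0.66 with the 12 fibroblast genes, 0.62 with the 4 mast cell genes and -0.69 with the 14 muscle fibre genes. For Pdgfra these medians were 0.79, 0.85, 0.61 and -0.74. For Flt4 they were 0.41, 0.12, 0.34 and -0.31, and 0.34 with the 10 blood vessel genes. With the 2 lymphatic genes the median of Flt4 was 0.25. Without non-adhesive day 14 replicate 4 the medians of Kit were 0.52 with the leukocyte genes, 0.47 with the fibroblast genes, 0.395 with the mast cell genes and -0.61 with the muscle fibre genes. Those of Pdgfra were then 0.67, 0.78, 0.51 and -0.66, and those of Flt4 0.35, -0.01, 0.23 and -0.24, and 0.35 with the lymphatic genes. The summed CPM of the muscle fibre genes was 14420 to 24730 for adhesive day 14, 9825 to 24800 for non-adhesive day 14, 2783 to 6044 for adhesive day 3 and 2198 to 7597 for non-adhesive day 3. The part of muscle, fibroblast and leukocyte RNA in the values of Kit and Pdgfra was not tested.

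**Figure D5:**
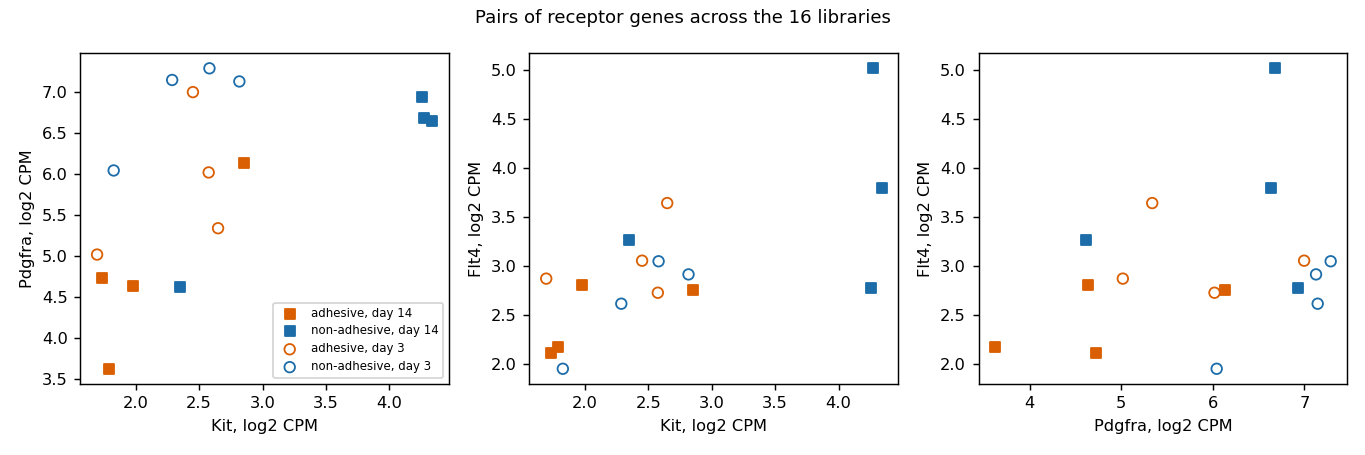
Log2 CPM of Kit, Pdgfra and Flt4 against each other, 1 point per library; orange is adhesive, blue non-adhesive, filled squares are day 14 and open circles day 3. The 3 non-adhesive day 14 libraries with Kit at 4.26 to 4.34 log2 CPM are separate on the Kit axis, and replicate 4 of that group lies among the others. In Pdgfra these 3 (6.64 to 6.93) lie within the range of the other libraries, and in Flt4 they spread from 2.78 to 5.02.

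The genes most like each receptor were ranked by Pearson's r among 1909 genes with a symbol. Over 16 libraries, Kit was closest to Prkd1 (protein kinase D1, r = 0.94), Bace2 (a transmembrane protease, r = 0.92), Ptpn13 (a tyrosine phosphatase, r = 0.91), Gal3st4 (a sulfotransferase, r = 0.91) and Slit2 (a secreted guidance protein, r = 0.90). Within groups it was closest to Arf2 (r = 0.95), Traf7 (r = 0.94), Gnb2 (r = 0.92), Srpx2 (r = 0.92) and Urb1 (r = 0.92), with no gene in both lists. Pdgfra was closest to Slc39a7 (a zinc transporter, r = 0.96), Prdx4 (a peroxiredoxin of the secretory pathway, r = 0.95), Gja1 (connexin 43, r = 0.95), Nid2 (a basement membrane protein, r = 0.94) and Tcn2 (r = 0.94) over all libraries. Within groups Vasn (r = 0.98), Col3a1 (r = 0.97), Prps2 (r = 0.97), Col1a1 (r = 0.96) and Man1a1 (r = 0.96) came first, 2 of them fibrillar collagens. Flt4 had lower values. Over all libraries it was closest to Itga6 (the alpha chain of a laminin receptor, r = 0.87), Grap (an adaptor of the Grb2 family, r = 0.81), Anxa3 (r = 0.78), F11r (a junctional adhesion molecule, r = 0.77) and Prkd1 (r = 0.74). Within groups it was closest to Serpinb10 (r = 0.83), Itga6 (r = 0.82), Pttg1 (r = 0.71), Grap (r = 0.71) and Cdc7 (r = 0.71). All 30 of these entries stayed among the 50 most alike genes by Spearman's rho, and all 30 without non-adhesive day 14 replicate 4.

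Genes beside the receptors on the chromosome were also read, with distances taken between the lower coordinates of genes, whatever their strand. Within 1 Mb of Kit lie 19 other genes in the count files, of which 8 were tested on day 14 and 0 called, with log2 fold changes between implants of -1.38 to 0.23. The lowest of these is Pdgfra itself, and the median was -0.14. Around Pdgfra 7 of 14 other genes were tested, with -1.85 (Kit) to 0.37 and a median of -0.21. Chic2, 155.5 kb from Pdgfra, gave -0.07, and Fip1l1, whose fusion with PDGFRA is known from human leukaemia, gave 0.01. Lnx1 (a ubiquitin ligase) gave -0.64, and Clock, Tmem165, Srd5a3 and Exoc1 lay between -0.21 and 0.23. A gene with no symbol here, which lies between Srd5a3 and Kit, gave -0.75, the lowest around Kit after Pdgfra. Between days under non-adhesive implants that gene gave 0.49, where the 8 tested around Kit ranged from -0.53 to 0.64. Around Flt4 25 of 68 other genes were tested on day 14 and 0 called, with -1.49 (Ltc4s, 658.9 kb away) to 0.65 (Trim7) and a median of -0.12. Ltc4s, listed here with the mast cell genes, thus lies on the same chromosome stretch as Flt4. Between days under non-adhesive implants 0 of the 8 tested genes around Kit were called, 1 of 7 around Pdgfra, which is Kit, and 1 around Flt4, which is Sqstm1 and was lower (log2 fold change -1.003). Under adhesive implants 2 of the genes around Flt4 were called lower between days, Ifi47 (an interferon-induced GTPase) at -1.79 and 1 gene with no symbol here at -1.91.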

How the data were processed

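Total RNA of implant–abdominal wall interfaces was enriched for mRNA and sequenced by the authors. Reads were demultiplexed with bcl2fastq 2.17, checked with FastQC, trimmed with Cutadapt, aligned with STAR and assigned to genes by featureCounts. What the authors deposited is 1 file of raw counts per library, whole numbers for 32552 genes. Whether counting used the strand is not stated. Symbols for 2007 genes were read from the part held here of the authors' supplementary list, whose fold changes and p values were not used. The 3 receptors and the 16 gene lists (274 entries, 101 with an identifier) were chosen with earlier results of these data known.

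After filterByExpr and TMM scaling, the counts entered edgeR 4.0.16 (R 4.3.3; quasi-likelihood, robust), each day alone for implants and all 16 libraries for days, with Benjamini-Hochberg adjustment over all genes. CPM on the log2 scale used a prior count of 2. Genes were named by a rule: the receptors, every ligand and sister receptor with a symbol, per list the 3 most abundant and up to 3 called in each direction, the 5 most alike genes per receptor and named genes within 1 Mb, and a part of these is given; some called genes are not reported here. DESeq2 1.42.0, limma-voom (limma 3.58.1), DESeq2 size factors, no filter, a replicate block, other sets of libraries and leaving out each library were alternatives. Marker lists without single genes were alternatives chosen after seeing the data. Promoter windows came from the RefSeq table on GRCr8.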

Additional observations from a re-analysis of the deposited data

Results flagged for a closer look

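Among 64 groups of 4 libraries checked (the receptors, their ligands, other receptors and mast cell and lymphatic genes), 4 held a library far from the others, and chance flags about 1 in 20 groups. Kit in non-adhesive day 14 replicate 4 was at 4.986 CPM, where the other 3 were at 19.0 to 20.1 CPM. Alox5ap in the same library was at 5.92 CPM, against 25.2 to 28.3 CPM in the others of its group. Kit in adhesive day 14 replicate 2 was at 7.123 CPM, against 3.21 to 3.84 CPM in the others, and Srgn in the same library at 43.88 CPM, against 18.7 to 22.7 CPM. Flags in 4 of 64 groups are near the share that chance gives, so nothing is read from which libraries or genes held them.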

How the results depend on the processing

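All fold changes of Kit, Pdgfra and Flt4 in the 4 comparisons moved by less than 1 SD between replicates under every alternative run. That spread is wide. With each library left out in turn, Flt4 between days was 0.65 to 1.55 under non-adhesive implants, and Pdgfra -1.65 to -0.49 under adhesive implants. Counts of called genes moved more. DESeq2 called 69 genes between implants on day 3, 474 on day 14 and 25 for the difference between days in the effect of the implant, where edgeR called 0, 36 and 1. One fit of all 16 libraries called 216 on day 14. With only the 8 libraries compared, 575 were called between days under non-adhesive implants, where 1325 were called with all 16. Without a limit on the fold change 2174 and 2561 genes were called between days under adhesive and non-adhesive implants. With the replicate number as a block, 0 genes were called between implants on day 14 and 0 for the difference, and Socs1, Selp, Aif1 and Sh2b2 were not called between days. Same-numbered libraries correlated at -0.34 to 0.475 in their deviations from the group means, below 0.1 for 3 of 8 pairs. Differently numbered libraries were not correlated for comparison, so whether the numbers pair the samples cannot be told. Leaving out each library gave 0 calls throughout on day 3, 1 to 1151 on day 14, with the most without non-adhesive replicate 4, 462 to 1570 between days under adhesive implants, 744 to 1740 under non-adhesive implants and 0 to 3 for the difference. The cause of these moves was not tested. Counts of called genes per list stayed the same or within 1.5 times in 1296 of 1395 cases. With marker lists changed after seeing the data, the difference of adhesive and non-adhesive day 14 medians of Kit over mast cell genes was -1.06 without Rab44 and -1.836 without Ltc4s, and that of Pdgfra over fibroblast genes between days under non-adhesive implants was -0.6653 without collagens, Dpt and Fibin. Depth limits the precision of Kit and Flt4, with 31 and 41 counts in their lowest libraries.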

Other observations

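Other cell types of the abdominal wall moved beside the receptors. Of the 14 muscle fibre genes, 4 rose under adhesive implants on day 14 over day 3, among them Mb (myoglobin), which rose by 3.02 on the log2 scale (SE 0.52, adjusted p = 0.00366, edgeR), and 4 rose under non-adhesive implants, among them Eno3 (muscle enolase) by 2.79 (SE 0.57, adjusted p = 0.00618, edgeR). Between implants 0 of 14 were called on either day, with all 14 positive on day 14 (median 0.53, all genes -0.04). Of the leukocyte genes, Aif1 (a macrophage protein) fell between days under adhesive implants by 1.32 (SE 0.39, adjusted p = 0.0357, edgeR), a call kept in 10 of 16 fits that left out 1 library. Of 5 genes of pericytes and smooth muscle, Myocd rose under adhesive implants by 1.69 (SE 0.41, adjusted p = 0.017, edgeR) and Mylk (myosin light chain kinase) under non-adhesive implants by 1.02 (SE 0.22, adjusted p = 0.00871, edgeR), kept in 12 and 8 of 16 such fits. Both were lost in a fit of the 8 libraries compared alone, and Mylk also with no filter on low counts. Myocd was low, with a mean of 0.686 CPM over the 16 libraries. Between implants on day 14, Mylk gave -1.28 (SE 0.22, adjusted p = 0.0724, edgeR) and did not pass. Of the 5 genes, 3 were negative and 2 positive in that comparison.

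Of 5 Schwann cell genes, 0 were called between implants. S100b gave -2.58 (SE 0.68, adjusted p = 0.131, edgeR) between implants on day 14. Of the adipocyte genes, Adipoq (adiponectin) gave -3.51 (SE 0.89, adjusted p = 0.124, edgeR) and Retn (resistin) -1.82 (SE 0.82, adjusted p = 0.332, edgeR) on day 14, and neither passed in any comparison. Without non-adhesive day 14 replicate 4, 2 of the 14 muscle fibre genes, 1 of the 5 pericyte and smooth muscle genes, 1 of the 5 Schwann cell genes and 1 of the 2 adipocyte genes were called between implants on day 14. None of the 5 melanocyte genes listed has a symbol here.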
